A study of Mus musculus with 9 samples.

Results

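The sites described here are places in the mouse genome where Rad21, a subunit of cohesin, was called in pre-B cells but in neither DN nor DP thymocytes, and where CTCF was called in B-lineage cells. Rad21 peaks of the 3 cell types that overlapped by 1 bp or more on chromosomes 1 to 19 were merged into 45491 sites, and a merged site was kept when it held a pre-B peak, no DN or DP peak, and an overlap with a CTCF peak of pre-B cells or of pro-B cells cultured with IL7. This left 7986 sites, which is 17.6% of all merged Rad21 sites and 27.0% (95% exact interval 26.5 to 27.5) of the 29622 sites with a pre-B peak. With the pre-B and DP lists cut to the length of the shorter DN list, 2216 sites met the rule. That cut also drops DP peaks, so sites with a DP peak in the full list can enter. Only 555 of the 7986 sites have a pre-B peak in the cut list, so most of the 2216 are other sites. Values given below for lists of the DN length describe those 2216 sites. The members were thus chosen by the Rad21 and CTCF calls of these same libraries, so their ranks in the Rad21 and CTCF lists are given as a description and no test was run on them.

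The 5 ChIP-seq libraries came from C57BL/6 mice of both sexes that all lacked RAG1, so that the antigen receptor loci were not rearranged by the cells' own recombinase. Pre-B cells were bone marrow cells of RAG-/- mice that carried a rearranged IgM transgene, and CTCF and Rad21 of these cells shared 1 input. The second CTCF library came from RAG1-/- pro-B cells held in IL7 for 7 days, and bone marrow donors were 6 to 14 weeks old. DN thymocytes came from Rag1-/- mice and DP thymocytes from Rag1-/- mice with a rearranged TCRb transgene, at 4 to 8 weeks. Each antibody and cell type had 1 library, so no value carries a spread between animals, and the exact intervals printed cover counting error only. The pre-B list of Rad21 had 30488 peaks, the DN list 9701 and the DP list 36743, and the reads behind them are unknown. Absence from the thymocyte lists means only that no peak was called, so weak binding there remains possible. No expression was measured in these libraries, so the identity of the cells rests on the labels.

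Cohesin is a ring-shaped complex that holds DNA strands together and extrudes chromatin loops, and Rad21 is the subunit that closes the ring. CTCF is a zinc finger protein that binds a long GC-rich motif and stops moving cohesin, chiefly when the motif points toward it, so that many cohesin peaks in mammalian cells lie at CTCF sites. In developing lymphocytes, loops of this kind bring distant V genes of the antigen receptor loci near the segments with which they recombine, and they also set which enhancers reach which promoters.

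The stretch of sequence that CTCF reads is shown first for members that the results below return to. Each line gives 52 bases, 5′ to 3′ on the strand of the match, from the NCBIM37 (mm9) assembly, with the 12 bases that best matched the authors' de novo HOMER consensus for CTCF in capitals. The first and second lines are the members with the highest Rad21 scores, which lie in and beside the Igλ locus, and the next is the member that stood among the 10 highest by both Rad21 and CTCF score besides the first.

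Beside Igλ, chr16:19003223-19003274, minus strand: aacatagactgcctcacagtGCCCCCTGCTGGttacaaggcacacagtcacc
In Igλ, chr16:19146861-19146912, minus strand: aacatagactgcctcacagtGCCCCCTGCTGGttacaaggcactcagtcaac
Near Nrxn2 and Slc22a12, chr19:6552630-6552681, minus strand: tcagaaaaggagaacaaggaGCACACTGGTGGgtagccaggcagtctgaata
In Msrb3, chr10:120313412-120313463, plus strand: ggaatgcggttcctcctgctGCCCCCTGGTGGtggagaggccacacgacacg
In Igκ, chr6:68052648-68052699, plus strand: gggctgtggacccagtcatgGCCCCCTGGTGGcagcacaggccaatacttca
In Pax5, chr4:44577600-44577651, minus strand: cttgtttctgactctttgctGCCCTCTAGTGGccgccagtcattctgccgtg

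The windows in Msrb3 and Igκ matched the consensus at every base. Both Igλ windows had 1 mismatch, and they were identical at 50 of 52 bases. Of the words of 31 bases in these 2 peaks, 33.7% and 33.9% occurred again on chromosome 16. The authors' mapping kept reads that fit up to 3 places, so some reads may have been counted at both peaks, and their part in the scores was not tested.

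Most of the pre-B-only sites with CTCF were weak Rad21 peaks. The score of a peak is the value the authors' MACS run gave it from its p-value against input, and the rank of a peak is used here as the percent of its own list with a lower score. The median rank of the 7986 sites in the pre-B Rad21 list was 29.5 (quartiles 14.6 and 47.2), and 6241 of them (78.1%) lay in the lower 50% of the list. Their scores ran from 59.74, the lowest kept in the list, to 3100, with a median of 107. Sites also called in DP but not in DN thymocytes, with CTCF, were 10518 in number and had a median rank of 50.6. The 8537 sites called in all 3 cell types with CTCF had a median rank of 82.3, and the 1383 pre-B-only sites without CTCF one of 13.7. The members therefore stood between the pre-B-only sites that lacked CTCF and those shared with thymocytes, with wide overlap between the classes. Their peaks were also narrower, with a median width of 528 bp against 616 bp and 723 bp in the shared classes.

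**Figure D1:**
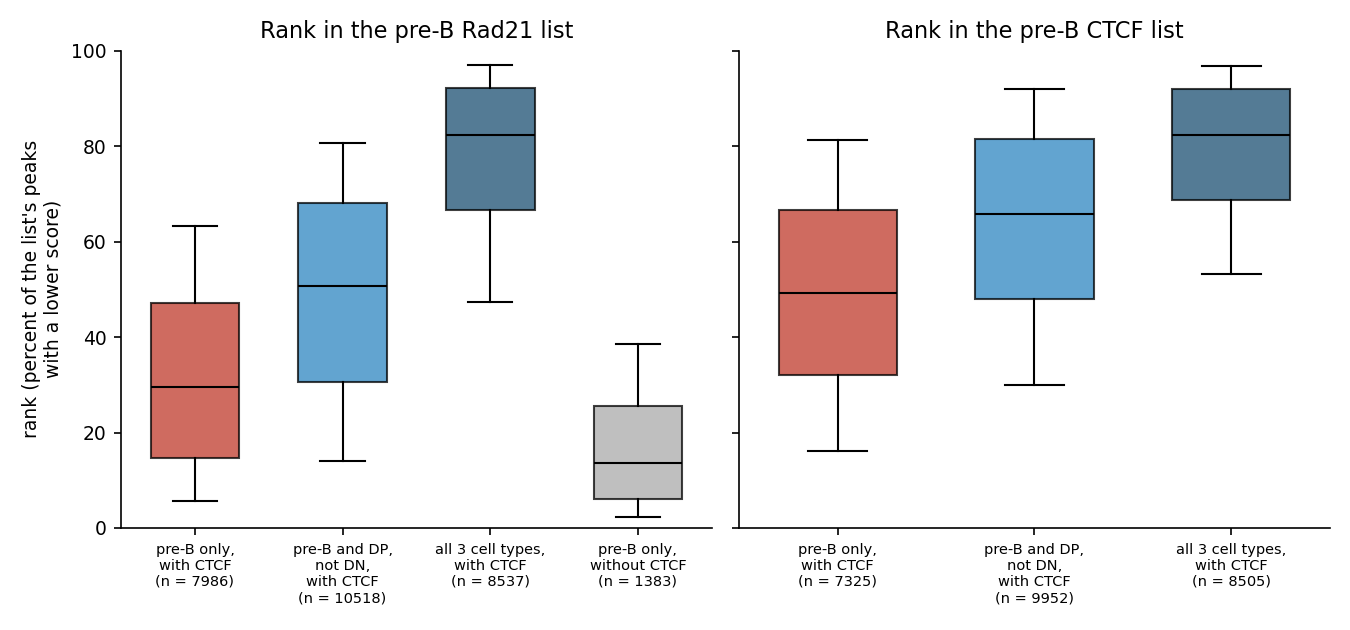
Rank of pre-B Rad21 sites in the pre-B Rad21 list (left) and the pre-B CTCF list (right), as the percent of the list's peaks with a lower score, for 4 classes of sites on the left and, since sites without CTCF have no CTCF rank, 3 on the right. Lines in the boxes are medians, boxes span the quartiles and whiskers the 10th to 90th percentile over sites. The members' medians, 29.5 for Rad21 and 49.3 for CTCF, lie below those of the shared classes.

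The members' share fell along the list. Of the pre-B sites among the lowest-scoring 10% of Rad21 peaks, 46.2% were members, and the next 10% held 47.4%. The share was 33.4% in the fifth step of 10%, 9.49% in the eighth, and 1.75% (53 of 3026 sites, interval 1.31 to 2.28) among the highest-scoring 10%. The steps of the CTCF list gave the same order, from 59.5% of the pre-B Rad21 sites over its lowest 10% to 7.44% over its highest. When only as many of the strongest pre-B peaks were kept as the DN list holds, 555 members (6.95%) remained in that part of the list.

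**Figure D2:**
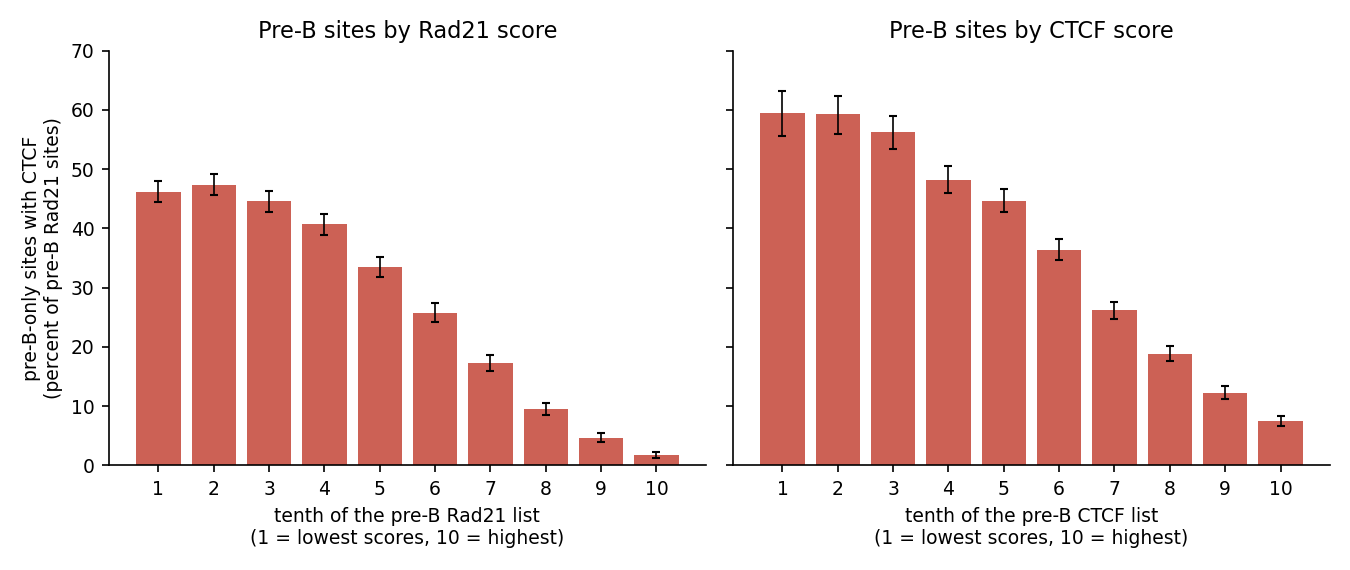
Share of pre-B Rad21 sites that were pre-B-only with CTCF, in percent, by steps of 10% of the pre-B Rad21 list (left) and the pre-B CTCF list (right), with exact 95% intervals for counting error. The share is 46.2% in the lowest step of the Rad21 list and 1.75% in the highest.

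CTCF peaks at the members came from all levels of the CTCF list. Of the 9369 sites called in pre-B cells only, 85.2% (84.5 to 86.0) overlapped B-lineage CTCF, while of the 15297 sites called in DP thymocytes only 34.1% (33.4 to 34.9) did. No thymocyte CTCF list was used, so these shares do not compare the lineages. Whether CTCF lay at the DP-only sites in thymocytes was not examined. CTCF was called in both the pre-B and the IL7-cultured cells at 6943 members (86.9%), in pre-B cells only at 382 (4.78%) and in IL7-cultured cells only at 661 (8.28%). Members with a pre-B CTCF peak had a median CTCF rank of 49.3, against 65.8 and 82.4 in the classes shared with DP and with both thymocyte lists. With the pre-B and DP Rad21 lists cut to the length of the DN list, the sites that met the rule had a median CTCF rank of 79.1. Most of those sites are not members. At members with CTCF in both lists the median Rad21 rank was 31.7, at those with CTCF in the pre-B list alone 24.2, and at those with CTCF in the IL7 list alone 14.0. Where only the IL7 list held CTCF, its peaks were low as well, with a median rank of 28.0 in that list, against 68.5 at members called in both lists. Of the members, 42 shared their CTCF peak with another member, and 104 (1.30%) had a CTCF peak that also overlapped a thymocyte Rad21 peak.

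Rad21 rank rose with CTCF rank among the members. Over the lower, middle and upper of 3 equal parts of the pre-B CTCF list, the median Rad21 rank of members was 20.03, 31.7 and 46.9. In the same parts it was 27.5, 44.4 and 65.0 for sites shared with DP thymocytes, and 33.1, 62.0 and 86.8 for sites called in all 3 cell types. In each part the members had the lowest median Rad21 rank of the 3 classes. The rule used the Rad21 calls, so this order is not a finding on its own.

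The consensus behind the capitals above was found with at most 2 mismatches, on either strand, in the CTCF peaks of 3522 members (44.1%, 43.0 to 45.2). With at most 1 and 3 mismatches the share was 13.5% and 89.0%. Sequence of the same length 2 kb away held it at 1.26%, 8.95% and 47.7% with at most 1, 2 and 3 mismatches. The share was 51.2% at sites shared with DP and 62.3% at sites called in all 3 cell types. Most of that gap went with CTCF rank. Over the lower, middle and upper part of the CTCF list, members held the consensus at 29.7%, 44.1% and 67.6%, sites shared with DP at 26.9%, 45.2% and 65.9%, and sites called in all 3 cell types at 30.6%, 49.1% and 66.9%. Only in the middle part did the intervals of members (42.5 to 45.8) and of sites called in all 3 cell types (46.6 to 51.5) not overlap. The matches lay a median of 57 bp from the midpoint of the Rad21 peak, and 51.2% of those on 1 strand were on the plus strand. The match or the base beside it held a CpG, the dinucleotide at which mouse DNA is methylated, at 30.8% of the 3348 members whose match had a strand (29.3 to 32.4), against 36.5% and 36.9% in the shared classes.

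**Figure D3:**
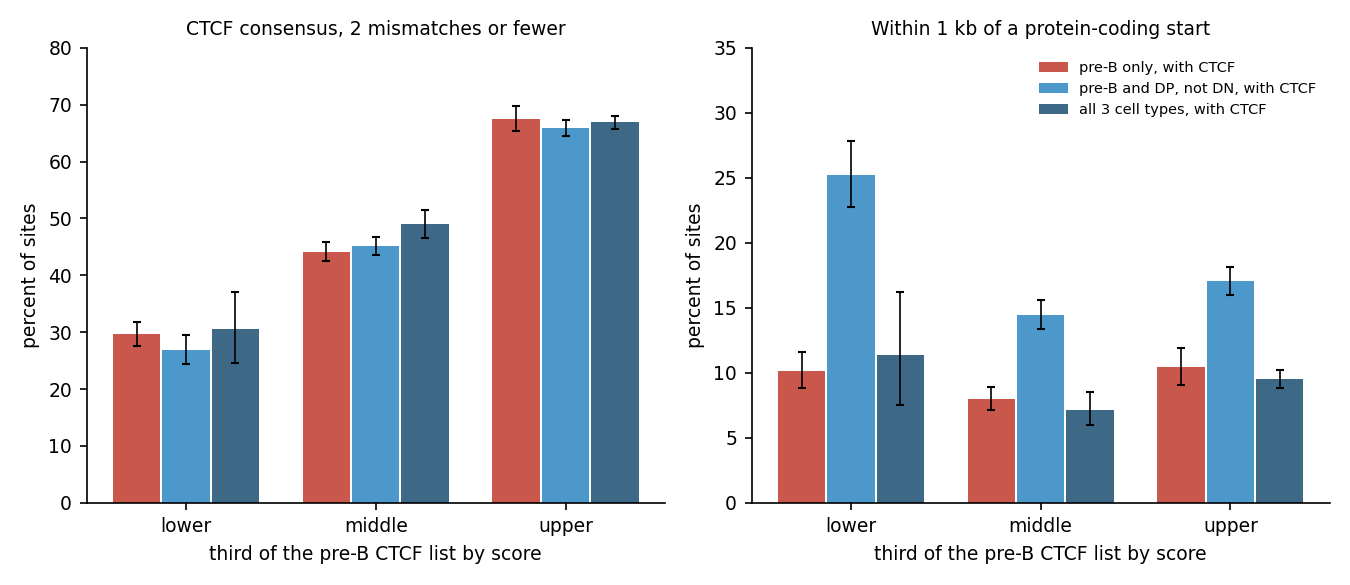
Percent of sites whose CTCF peak held the consensus with at most 2 mismatches (left) and percent within 1 kb of a protein-coding start (right), in 3 equal parts of the pre-B CTCF list by score and for 3 classes of sites, with exact 95% intervals for counting error. The consensus shares of the classes are close within each part, while the sites shared with DP thymocytes have the highest promoter share in each.

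The members lay mostly away from promoters. Of the 7986 sites, 768 (9.62%, 8.98 to 10.3) lay within 1 kb of the start of a protein-coding transcript, 804 (10.1%) overlapped an exon elsewhere, 2783 (34.8%) lay in introns and 3631 (45.5%) outside genes. The promoter share was 18.5% (17.8 to 19.2) for sites shared with DP and 9.12% (8.52 to 9.76) for those called in all 3 cell types. It was 19.3% for pre-B-only sites without CTCF. The difference from the sites shared with DP held in each part of the CTCF list, at 10.2% against 25.2%, 8.00% against 14.4% and 10.4% against 17.1%. The intron share of 34.8% (33.8 to 35.9) stood above the 30.1% and 28.0% of the shared classes. This order did not hold throughout the CTCF list: in its lower part the intron share was 36.6% for members and 39.3% for sites called in all 3 cell types, and in its middle part the intervals of members (34.5 to 37.7) and of sites shared with DP (32.7 to 35.7) overlapped. The median distance of members to a start was 17685 bp.

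**Figure D4:**
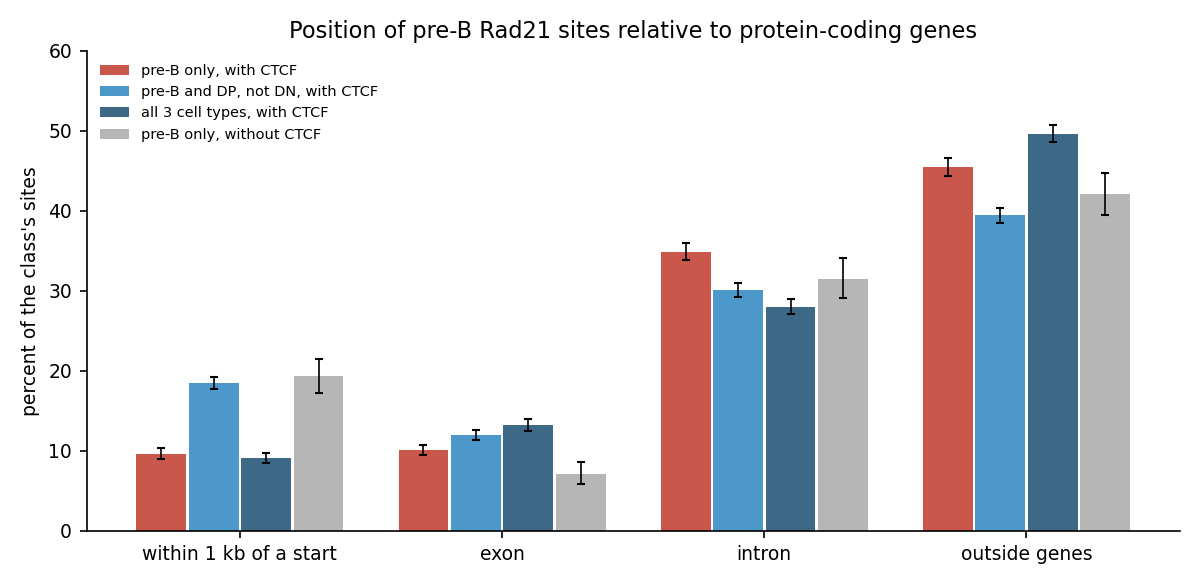
Percent of sites within 1 kb of a protein-coding start, in exons, in introns and outside genes for 4 classes of pre-B Rad21 sites, with exact 95% intervals for counting error. Members have 9.62% at starts and 34.8% in introns.

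The strongest members at promoters belonged to genes with varied roles. The first of the 10 was at Trpc4, a cation channel gene, with a Rad21 rank of 93.4, and the next at Klf4, a zinc finger factor that restrains proliferation of B cells, with 91.4. Dusp3, which encodes a phosphatase, had 89.8, and Plk2, a kinase gene, 88.6. Klf2, which keeps lymphocytes quiescent and drives S1pr1, held a member over its start with a Rad21 rank of 86.5, a low pre-B CTCF rank of 25.0 and no CTCF peak in the IL7 list. S1pr1 itself, the receptor that guides lymphocytes out of tissues, held one with a Rad21 rank of 83.5 and a CTCF rank of 33.4, whose edge was 35 bp from a DP Rad21 peak. Aadat, Irs1, Sema3g and the Igsf5 and Pcp4 pair made up the rest, with Rad21 ranks from 82.7 to 86.7.

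Only 2 of the 10 members with the highest Rad21 score were also among the 10 with the highest pre-B CTCF score. At the top of the Rad21 list, the member beside Igλ had a score of 3100 (chr16:19002715-19004151) and lay 32.3 kb from Hira and 24.2 kb from Gm10088. The member in Igλ had 2549.56 (chr16:19146303-19147578), between Iglc3 and Iglc2, the constant region genes of the λ light chain. The next, with 2240.54 (chr11:45352480-45353423), lay in the wide gene-free stretch between Ebf1, the factor that commits cells to the B lineage, and Clint1. It was 531 kb from Ebf1 and 312 kb from Clint1, its CTCF rank was 88.7, and its best consensus match had 4 mismatches. The member near Nrxn2 had 2218.77 (chr19:6551913-6552914) and a CTCF score of 3100. Members near 1700057K13Rik, in Slpi, near Cdh5, near Tomm20, in E130309F12Rik and near Dusp22 followed, with scores from 1799.56 to 1320.83. The last of these (chr13:30695550-30696508) lay between Uqcrfs1 and Dusp22. For these 10 the nearest DP peak was 607 bp to 228115 bp away, and none had a CTCF peak that overlapped a thymocyte Rad21 peak.

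The 10 members with the highest CTCF score had very different Rad21 ranks. They ran from 12.01 near Ndufa4l2 and 46.7 near Tac4 to above 99 for the member beside Igλ and the Nrxn2 member. Near Ndufa4l2, Tac4 and Txnrd3 the CTCF peak also overlapped a thymocyte Rad21 peak, and the nearest DP peak was only 287 bp, 189 bp and 350 bp from the member. The other members of the 10 were in Snx29, near Zfp516, in Rap1gap, in Msrb3 and in 1500009C09Rik, with Rad21 ranks of 88.5, 88.7, 85.7, 66.7 and 78.6.

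Members often followed one another along the chromosomes. A member was followed by another member as the next merged Rad21 site in 30.7% of cases (29.7 to 31.7), and a site that was no member was followed by one in 14.8% (14.4 to 15.1). Over sites with a pre-B peak alone these shares were 35.5% and 23.8%. With members up to 100 kb apart joined into chains, 71.8% of the 7986 (70.8 to 72.8) lay in a chain with another member, and 52 chains held 10 or more. Among the sites that met the rule with lists of the DN length 43.1% lay in a chain. The members' share depended on the gap, with 54.1% at 50 kb and 86.2% at 200 kb. No chain share of other sites stands beside it, so it is a description only. The median gap between neighbours was 96686 bp. Among neighbouring members of a chain whose matches had a strand, 31.01% of 732 pairs were both on the plus strand and 23.5% both on the minus strand, while 23.2% were plus then minus and 22.3% minus then plus. Among chromosomes the share of pre-B sites that were members ran only from 23.5% on chromosome 11 to 30.5% on chromosome 6.

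Chains of many members had different surroundings. The longest, on chromosome 10 (78965548 to 80281270), held 31 members, but these were 30.7% of its 101 pre-B sites, 96 sites there had a DP peak, and it spanned 78 protein-coding genes. The chain on chromosome 17 from Slc44a4 to Tcf19, which crosses the MHC genes H2-D1 and H2-Q4 and the cytokine genes Tnf and Lta, was similar, with 14 of 47. The chain over the MHC class II genes H2-Ab1, H2-Aa and H2-Eb1, which present antigen, held 13 members among 28 pre-B sites. In other chains the members made up most of the pre-B sites. On chromosome 13 at Cplx2 and Thoc3 they were 15 of 19 with 4 DP sites, and on chromosome 6 in Igκ 15 of 18 with 1 DP site. A chain on chromosome 11 from the Ebf1 to Clint1 interval to Adam19, which includes the strong site there, held 15 of 23. The chain at Prr5 and Arhgap8 on chromosome 15 held 15 of 26, that at Rad51l1 and Zfp36l1 on chromosome 12, the latter an RNA-binding protein that restrains the pre-B cell cycle, 14 of 27, and that from Sumo3 to Trpm2 on chromosome 10 13 of 19.

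Counting unbroken runs of members among all merged Rad21 sites gave 102 runs of 5 or more, with 631 members. The longest run, of 20 members over 1379 kb, lay in Igκ. Runs of 11 lay at Cplx2 and over Melk and Pax5, and runs of 10 at the myosin heavy chain genes Myh1 to Myh13 and at Hip1. These runs were chosen for their length after the members were known and were not in the rule for naming genes.

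The V portions of the antigen receptor loci held 90 members, 43.3% of their 208 pre-B sites, beside 27.0% of all pre-B sites. Igλ is included here by the span of its V, J and C genes. With lists of the DN length 21 sites of these portions met the rule. The 90 members were distributed unequally between loci. In Igκ, whose light chain genes rearrange in pre-B cells, 51 of 59 pre-B sites were members (86.4%, 75.02 to 94.0), and 1 site of the V portion (67505630 to 70654171 on chromosome 6) had a DP peak. In Igh, the heavy chain locus, 35 of 91 were members (38.5%, 28.4 to 49.2), and 75 of all 111 Rad21 sites there had a DP peak. In Igλ, over its V, J and C genes, 4 of 5 were members. The V portions of TCRα/δ, TCRβ and TCRγ held no member among 42, 7 and 4 pre-B sites, which allows shares of up to 8.41%, 41.0% and 60.2% by the exact interval. For TCRβ and TCRγ that range includes the 27.0% of all pre-B sites.

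The ranks of the Igκ and Igh members overlapped over most of their range. The median Rad21 rank was 39.4 in Igκ, with a range of 0.197 to 92.2, and 27.0 in Igh, with a range of 1.71 to 71.8. The 56 other pre-B sites of Igh, which the rule left out, had a median rank of 55.6, while in Igκ 1 other site with CTCF was left out, so the medians of the members are a description and not a comparison of the loci. The consensus was found at 11 of the 51 Igκ members (21.6%) and at 27 of the 35 Igh members (77.1%), beside 44.1% over all members. These shares count a single consensus with at most 2 mismatches. The paper searched a larger set of motifs and reported a CTCF motif in most CTCF peaks of both V portions. A missing match here is therefore not a missing CTCF motif. All 27 matches at Igh members were on the plus strand, as were the 48 matches at the other Igh sites with CTCF, while the Igκ members had 6 on the plus and 5 on the minus strand. The Igλ site printed above lies between constant region genes. Besides it, the strongest members in the receptor loci counted here were all in Igκ, with Rad21 ranks of 92.2, 90.1, 83.8 and 83.8. The last pair of these, of which 1 is the Igκ member printed above, had the same score of 598.38. Some Ig sequence is repeated: in 11 of the 51 Igκ members and 11 of the 35 Igh members at least 50% of the words of 31 bases occurred again on the same chromosome, against 2 of 451 and 3 of 313 members elsewhere on chromosomes 6 and 12. The share was 74.3% and 41.4% for the Igκ members with ranks of 90.1 and 92.2 and 0 for the pair with the same score. With reads kept at up to 3 places, the part of repeats in these calls was not tested.

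**Figure D5:**
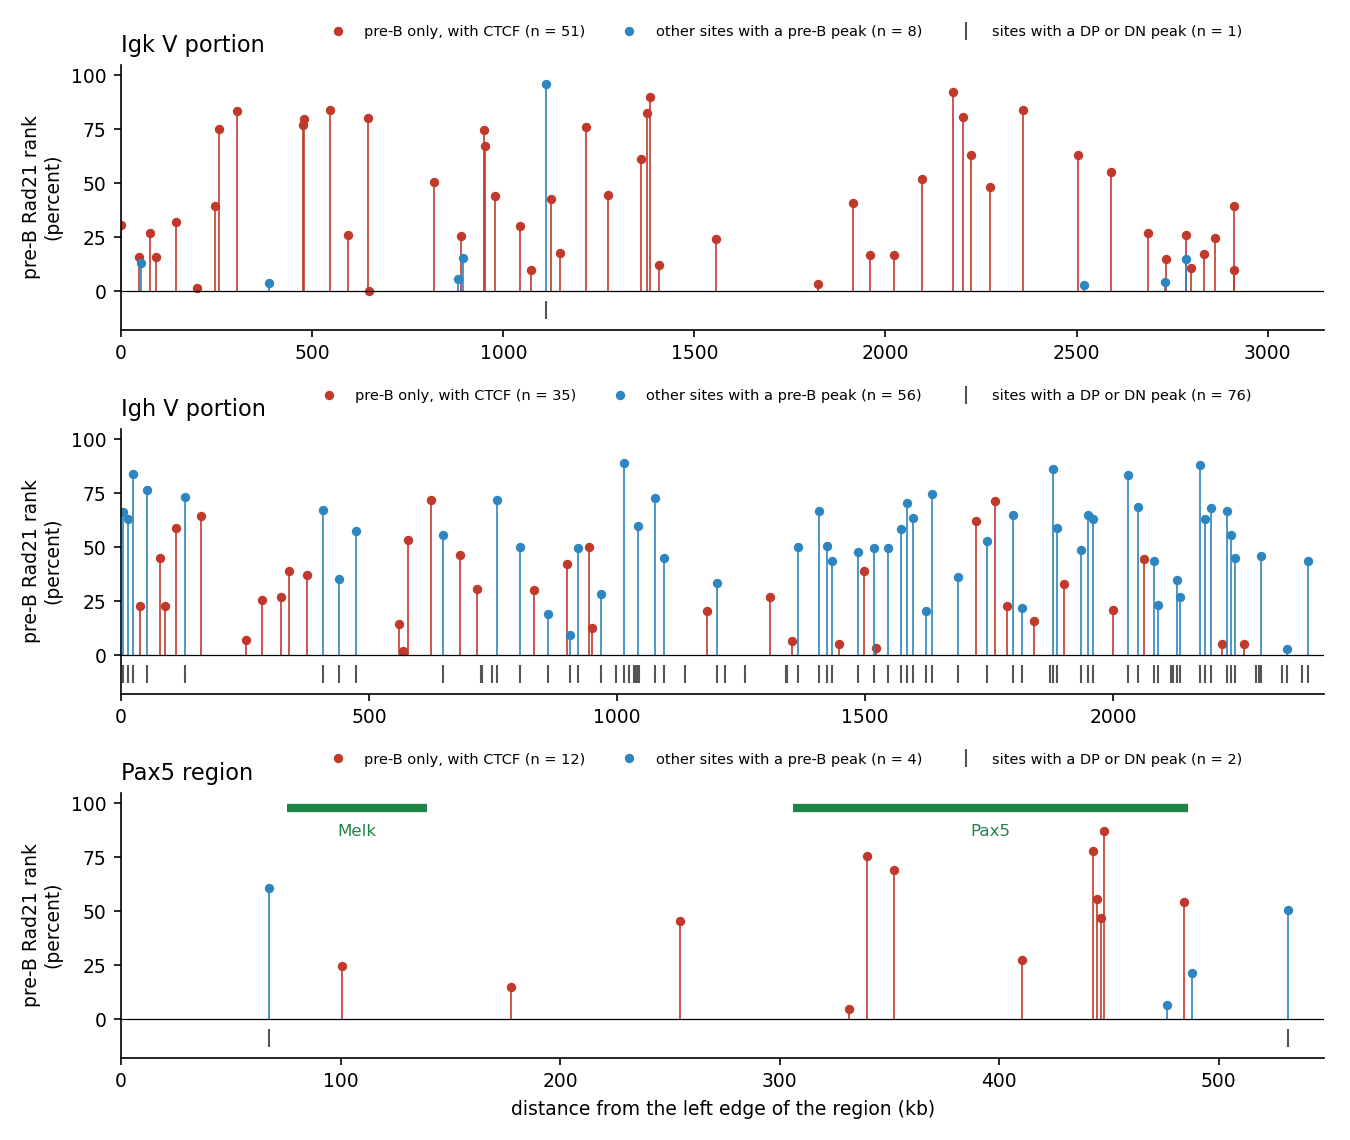
Merged Rad21 sites along the V portion of Igκ, the V portion of Igh and a region around Pax5, by distance from the left edge in kb. Height is the rank of the pre-B Rad21 peak in percent, red marks members, blue other sites with a pre-B peak, grey ticks sites with a DP or DN peak, and green bars genes. Members make up 51 of 59 pre-B sites in Igκ, 35 of 91 in Igh and 12 of 16 in the Pax5 region.

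Pax5, which holds cells to B-cell identity, had the most members within 50 kb among the 49 genes of the B-lineage list on chromosomes 1 to 19. Within 50 kb of Pax5, 9 of 12 pre-B sites were members and 1 site had a DP peak. The run of 11 members over Melk and Pax5 had 8 members in Pax5 introns, with Rad21 ranks from 4.81 to 87.3. Those with the ranks of 47.0 and 87.3 shared 1 CTCF peak and so count as 1 CTCF site. Next were Tnfrsf13c, the receptor for the survival factor BAFF, with 8 of 12 pre-B sites, and Bcl11a, a zinc finger factor needed for B-cell development, with 7 of 12. Spib, an Ets family factor of B cells, had 7 of 13, and Lyn, a kinase of B-cell receptor signalling, 6 of 11. Erg had 4 of 15, Fcrla 4 of 5, Mef2c 4 of 11 and Pik3ap1 4 of 10. Bank1 had 3 members, which were all of its pre-B sites, Cd79b, a signalling chain of the B-cell receptor, 3 of 10, and Ebf1 3 of 13. Spi1, Syk, Tcf3 and Vpreb3 also had 3 members each, of 10, 13, 8 and 4 pre-B sites.

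Of the 49 B-lineage genes on chromosomes 1 to 19, 39 (79.6%, 65.7 to 89.8) had a member within 50 kb of the gene body, beside 47.7% of all 21418 protein-coding genes. With lists of the DN length 19 had a site that met the rule (38.8%, 25.2 to 53.8), beside 20.6% of all genes. Sites were also denser near these genes, with 350 pre-B sites counted near the 49 B-lineage genes and 74672 near the 21418 genes. Of the pre-B sites counted near the B-lineage genes 30.3% were members, against 24.4% near all genes. The 10 genes with no member were Bach2, Blnk, Igll1, Ikzf1, Ikzf3, Ms4a1, Rag1, Rag2, Sox4 and Vpreb2. Ikzf1, which encodes the factor Ikaros, had 5 pre-B sites and 21 sites called in DP thymocytes only, of which 4 overlapped B-lineage CTCF. Members outnumbered DP-only sites that overlapped B-lineage CTCF, as members must, at 29 of the 49 genes (59.2%) and were fewer at 12 (24.5%), beside 34.1% and 23.4% of all protein-coding genes. Against DP-only sites with or without CTCF they were more numerous at 23 (46.9%) and fewer at 21 (42.9%), beside 25.1% and 40.4% of all genes. Gene length was compared too, since a long gene covers more sites: among the shortest, middle and longest of 3 equal parts of all genes, 9 of 12, 12 of 15 and 18 of 22 B-lineage genes had a member, beside 37.7%, 51.2% and 54.2% of all genes.

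Of 49 T-lineage genes on these chromosomes, among which Rag1 and Rag2 stand in both lists, 20 (40.8%, 27.0 to 55.8) had a member, an interval that covers the 47.7% of all genes. With lists of the DN length 8 had a site that met the rule (16.3%, 7.32 to 29.7), beside 20.6% of all genes. Within 20 kb 13 had a member (26.5%, 14.9 to 41.1), beside 32.4% of all genes. Of the pre-B sites near them 13.3% were members, against 24.4% near all genes, and DP-only sites with CTCF outnumbered members at 31 of the 49 (63.3%), beside 23.4% of all genes. With or without CTCF, DP-only sites did so at 45 (91.8%), beside 40.4% of all genes. The T-lineage genes with the most members were Ubash3a, which restrains T-cell receptor signalling, with 5 of 8 pre-B sites, and Skap1, an adaptor of that pathway, with 4 of 12. Cd2 and Zap70 each had 3 of 9. Cd8a, Cd8b1, Gata3, Bcl11b and Satb1 had none. Within 50 kb of each of Cd8a and Cd8b1 lay 31 DP-only sites, of which 3 and 4 overlapped B-lineage CTCF, and 1 pre-B site. The windows of these neighbouring genes overlap, so shared sites are counted for both. The exact intervals of the lists do not allow for such sharing.

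Of 23 myeloid and erythroid genes, 15 (65.2%, 42.7 to 83.6, which covers the 47.7% of all genes) had a member within 50 kb. Members were 30.6% of the pre-B sites near them, beside 24.4% near all genes. Members outnumbered DP-only sites with B-lineage CTCF at 15 of the 23 (65.2%) and were fewer at 2 (8.70%), beside 34.1% and 23.4% of all genes. With lists of the DN length 11 of the genes had a site that met the rule (47.8%, 26.8 to 69.4), and the 20.6% of all genes lay below that interval. Elane and Prtn3, neighbouring neutrophil protease genes that share sites, and Fcgr3, an Fc receptor gene, each had 5. Csf1r, the receptor that drives macrophage growth, had 3 members of 5 pre-B sites, with a top Rad21 rank of 92.5, and Lyz1 had 3 of 3. The intervals of the B-lineage and the myeloid and erythroid lists overlapped, so nearness to a member was not shown to be particular to B-lineage genes. Of 12 genes of cohesin and CTCF themselves 7 (58.3%, 27.7 to 84.8) had a member, again with 47.7% inside the interval. Of the pre-B sites near them 20.4% were members, beside 24.4% near all genes. Cdca5, which encodes the cohesin-protecting protein sororin, had the most with 3 of 10 pre-B sites. Rad21 itself had no pre-B or DP site within 50 kb.

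Few members lay close to the limit of the rule. The nearest thymocyte Rad21 peak was within 50 bp of 31 members, within 500 bp of 303 (3.79%) and within 1000 bp of 612 (7.66%). The median distance was 15522 bp to a DP peak and 47310 bp to a DN peak. Just inside the limit were members 2 bp from a thymocyte peak near Efcab2 and Zfp710 and 3 bp away near Asb6, with Rad21 scores of 82.67, 128.89 and 90.38. Just outside it were shared sites with overlaps of 9 bp near Tapt1, 10 bp near Mxi1 and 44 bp near Fnbp1, with scores of 92.12, 69.53 and 244.67. Of the 19430 sites shared with thymocytes and with CTCF, 6 overlapped by 100 bp or less.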

How the data were processed

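CTCF and Rad21 were measured by ChIP-seq. Per the paper's methods, duplicate reads and adapter sequence were taken out by the authors, reads were aligned to mm9 with Bowtie (at most 2 mismatches and 3 places), and MACS 1.4.2 was used for peaks over input. The submitters' processing notes name Bowtie 0.12.9, while the methods name another version. The deposited files hold each peak's position and score. The number of reads is unknown, and scores were only ranked within 1 list, except in the alternative with scores of at least 100. The input libraries were not analysed here.

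Peaks were merged, classed and annotated with GENCODE vM1 (NCBIM37, the same build as mm9) in Python 3.11.15, numpy 2.4.6 and scipy 1.17.1, with figures in matplotlib 3.10.9. The functions for merging, classes, chains and matches were tested on simulated data. With 1 library per condition no test between conditions was run, and shares carry exact Clopper-Pearson intervals at 95%. Listed gene names missing from the annotation were matched through synonyms of a RefSeq table, and listed genes on chromosome X were left out.

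The members and gene lists were chosen with earlier results of these data known. Named genes are those of the 10 highest Rad21 and CTCF scores, the 10 chains with the most members, the 5 highest-scoring members in V portions, the 10 highest-scoring members within 1 kb of a protein-coding start, up to 12 genes of each list with the most members within 50 kb (and those tied with the last), and the members nearest the overlap limit. Other names are counts of 0 or longest runs, chosen after the values were seen. Some named items, 1 of the 10 chains among them, are not reported here. Alternatives were scores of at least 100, lists cut to the length of the DN list, 50% overlap, peaks up to 500 bp apart merged, CTCF in pre-B cells only, and other distances and mismatch limits.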

Additional observations from a re-analysis of the deposited data

Results flagged for a closer look

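Chromosome X lies outside the rule, which covers chromosomes 1 to 19. By the same calls it held 199 pre-B-only Rad21 sites with CTCF among 674 sites with a pre-B peak, or 29.5% (exact interval 26.1 to 33.1), beside 27.0% on chromosomes 1 to 19.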

How the results depend on the processing

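Taking 50% overlap left all 10 results within their counting intervals or within 1.5 times. Merging peaks up to 500 bp apart gave 26.2% of pre-B sites as members, 8.85% at promoters and 69.7% in chains. With scores of at least 100 the members were 29.2% of pre-B sites, and their median CTCF rank within the cut list was 53.0. Of them, 8.77% lay at promoters, 66.6% in chains and 50.8% at the consensus. With CTCF in pre-B cells only they were 24.7% of pre-B sites, with a median Rad21 rank of 31.01, 69.1% in chains and 46.1% with the consensus. Lists as long as the DN list moved all 10 results. The rule then held for 2216 sites, 23.2% of pre-B sites. Of these sites 8.71% lay at promoters, 43.1% in chains, 59.1% had the consensus and 21 lay in V portions. They lay near 19 B-lineage and 8 T-lineage genes. Their median Rad21 rank was 26.1 within the cut list, and their median CTCF rank 79.1 in the uncut CTCF list. By construction these lists hold fewer, stronger peaks, and sites whose DP peak was dropped count as pre-B-only. Only 555 of the 7986 members have a pre-B peak in the cut list, so these values mostly describe other sites. A start within 2 kb gave 13.3% at promoters, chain gaps of 50 kb and 200 kb gave 54.1% and 86.2%, limits of 1 and 3 mismatches gave 13.5% and 89.0%, and genes within 20 kb gave 13 T-lineage genes. No paired analysis was possible because each condition had 1 library and no test was run. The depth behind each list is unknown, and the DN list is the shortest, so a site whose thymocyte signal stays under the limit of those lists counts as pre-B-only.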
